A study of Mus musculus with 36 samples.

Results

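The mitochondrial genome of the mouse was read here through the messenger, ribosomal and transfer RNA genes that it carries, in visceral white adipose tissue (visWAT) and liver of mice with and without the necroptosis effector *Mlkl* in adipocytes. Members were all genes that the gene table places on chromosome MT, which were 37 of 56748 genes, namely 13 messenger RNA genes, 2 ribosomal RNA genes and 22 transfer RNA genes. Epididymal fat, the visWAT depot used, and liver came from the same 18 male C57BL/6J mice, which gave 36 libraries. Mice were 16 weeks old when 16 weeks of feeding began, with normal chow (NCD) in one arm and a fat-rich diet (HFD) in the other. MlklAdi-KO mice had *Mlkl* flanked by loxP sites together with the Adipo-Cre transgene, by which the study aimed to delete the gene in mature adipocytes and not in other cells of visWAT or in liver. Their WT littermates carried the loxP-flanked alleles without Cre, hence no group had unmodified alleles or Cre alone. Each tissue had 4 WT and 4 MlklAdi-KO mice on NCD and 5 of each genotype on HFD, with 1 library per mouse.

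The mitochondrial genome is a small circle with almost no space between its genes. Both of its strands are transcribed into long precursors, which are cut where transfer RNAs lie between the other genes, so that transfer RNAs act as punctuation marks. The messenger RNAs encode core subunits of respiratory chain complexes I, III and IV and of the ATP synthase, the ribosomal RNAs build the mitochondrial ribosome, and the transfer RNAs serve translation inside the organelle. All other proteins of the respiratory chain and of mitochondrial RNA handling come from the nucleus. Adipocytes of the white depots hold fewer mitochondria than hepatocytes, and pieces of the mitochondrial genome have been copied into nuclear chromosomes during evolution. Libraries were made from polyadenylated RNA, which catches mitochondrial messenger RNAs through their tails and is not designed for transfer RNAs or ribosomal RNAs.

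Values are FPKM, in which the reads of a gene are divided by its length and by the size of the library, and reads are the whole numbers behind them. Libraries held 20875463 to 30322171 gene reads. The size that FPKM were divided by exceeded the gene reads in visWAT, by a factor of 1.01 to 1.40, and was below them in liver, by a factor of 0.737 to 0.812, so that FPKM carry a scaling between tissues. The 9 mature adipocyte markers summed to 5038 to 21966 FPKM in visWAT and 44.9 to 214 in liver, and the 9 hepatocyte markers to 51913 to 81575 FPKM in liver and 1.97 to 980 in visWAT. *Mlkl* in visWAT was 1.96 to 2.49 FPKM in MlklAdi-KO and 2.29 to 5.11 in WT mice on NCD, and 2.32 to 2.72 against 4.58 to 6.28 on HFD. The library labelled WT, mouse 182, NCD, visWAT, had 2.29 FPKM of *Mlkl*, a level inside the MlklAdi-KO range. It held 364 FPKM of 5 brown adipocyte markers against 14.9 to 78.7 in the other visWAT libraries. The same markers summed to 3.84 to 415 FPKM in liver, so their sum alone does not identify brown adipocytes. In the visWAT library of WT mouse 183 on NCD, 7 seminal vesicle genes took 18.5% of reads and 6 skeletal muscle markers summed to 120 FPKM. Counts of members called in comparisons that use the WT NCD group were therefore also made without mice 182 and 183, and values without them are given for the ribosomal and transfer RNAs that passed.

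Sequences of 3 kinds bear on the values that follow, and all are read from GRCm39 (mm39), the build of the gene table, 5′ to 3′ on the strand named. The first kind is the end of the longest identical run between the mitochondrial and the nuclear genome. The capital marks the only base that differs over 100 bases, T9461C, with the position counted along the mitochondrial genome, the mitochondrial base first and the nuclear base last. The stretch covers the end of the glycine transfer RNA gene *mt-Tg* and the start of *mt-Nd3*.
mitochondrial genome, chrM:9411-9510, plus strand: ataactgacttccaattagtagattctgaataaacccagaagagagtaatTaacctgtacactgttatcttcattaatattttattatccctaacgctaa
nuclear copy, chr1:24652149-24652248, minus strand: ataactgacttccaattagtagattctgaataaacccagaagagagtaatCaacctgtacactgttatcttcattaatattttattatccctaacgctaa

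The second is the place where *mt-Atp8* and *mt-Atp6*, both ATP synthase subunits, share 43 bases, shown in capitals. The same 100 letters stand on the minus strand of chromosome 1 at chr1:24653661-24653760, so a read confined to them matches both genomes.
mt-Atp8 and mt-Atp6, chrM:7899-7998, plus strand: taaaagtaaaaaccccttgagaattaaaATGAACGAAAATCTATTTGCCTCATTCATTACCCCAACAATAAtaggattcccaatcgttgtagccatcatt

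The third are transfer RNA genes, with the anticodon in capitals. The proline, glutamate, cysteine, asparagine and tyrosine genes held the most reads, the lysine gene nearly none, and the serine and leucine genes lie side by side with 1 base in common.
mt-Tp, chrM:15356-15422, minus strand: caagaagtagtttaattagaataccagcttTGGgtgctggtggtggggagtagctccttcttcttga
mt-Te, chrM:14071-14139, minus strand: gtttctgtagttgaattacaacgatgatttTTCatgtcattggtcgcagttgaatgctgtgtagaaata
mt-Tc, chrM:5192-5257, minus strand: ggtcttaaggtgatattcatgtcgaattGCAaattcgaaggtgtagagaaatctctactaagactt
mt-Tn, chrM:5089-5159, minus strand: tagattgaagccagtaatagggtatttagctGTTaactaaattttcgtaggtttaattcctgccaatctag
mt-Ty, chrM:5260-5326, minus strand: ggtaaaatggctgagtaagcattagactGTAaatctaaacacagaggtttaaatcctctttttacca
mt-Tk, chrM:7700-7764, plus strand: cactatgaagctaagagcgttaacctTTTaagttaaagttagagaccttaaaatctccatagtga
mt-Ts2, chrM:11613-11671, plus strand: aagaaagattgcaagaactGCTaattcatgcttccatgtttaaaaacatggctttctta
mt-Tl2, chrM:11671-11741, plus strand: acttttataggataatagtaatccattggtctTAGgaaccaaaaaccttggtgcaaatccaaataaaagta

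Over all 36 libraries, 41673296 reads lay on mitochondrial genes, of which 40925068 were on messenger RNA genes, 619798 on ribosomal RNA genes and 128430 on transfer RNA genes. Per library, the messenger RNA genes held 591064 to 2271250 reads. For every 1000 reads on messenger RNA genes there were 7.59 to 36.1 reads on ribosomal RNA genes and 2.09 to 3.96 on transfer RNA genes. The ribosomal RNAs are abundant in mitochondria, and their few reads here come from libraries selected for poly(A) tails. The effect of that selection on the ratios was not tested.

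The share of all gene reads that lay on the mitochondrial genome was lower on HFD than on NCD in most visWAT libraries and spanned a narrow range in liver. In visWAT of WT mice on NCD it was 2.96, 5.08, 7.23 and 9.18%, and in MlklAdi-KO mice on NCD it was 5.05 to 5.99% with a median of 5.29%. On HFD it was 2.34 to 3.51% in WT (median 2.81%) and 2.80 to 3.86% in MlklAdi-KO mice (median 3.32%). WT mouse 183 at 2.96% was the only NCD mouse within the HFD range. With the reads on the seminal vesicle marker genes left out, its share was 3.63%, still inside that range. Reads of that tissue on other genes could not be left out. Without mouse 183, visWAT ranged from 5.05 to 9.18% on NCD and from 2.34 to 3.86% on HFD, with no overlap. Liver libraries of all 4 groups lay between 5.03 and 5.93%, with group medians of 5.35 to 5.52%.

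**Figure D1:**
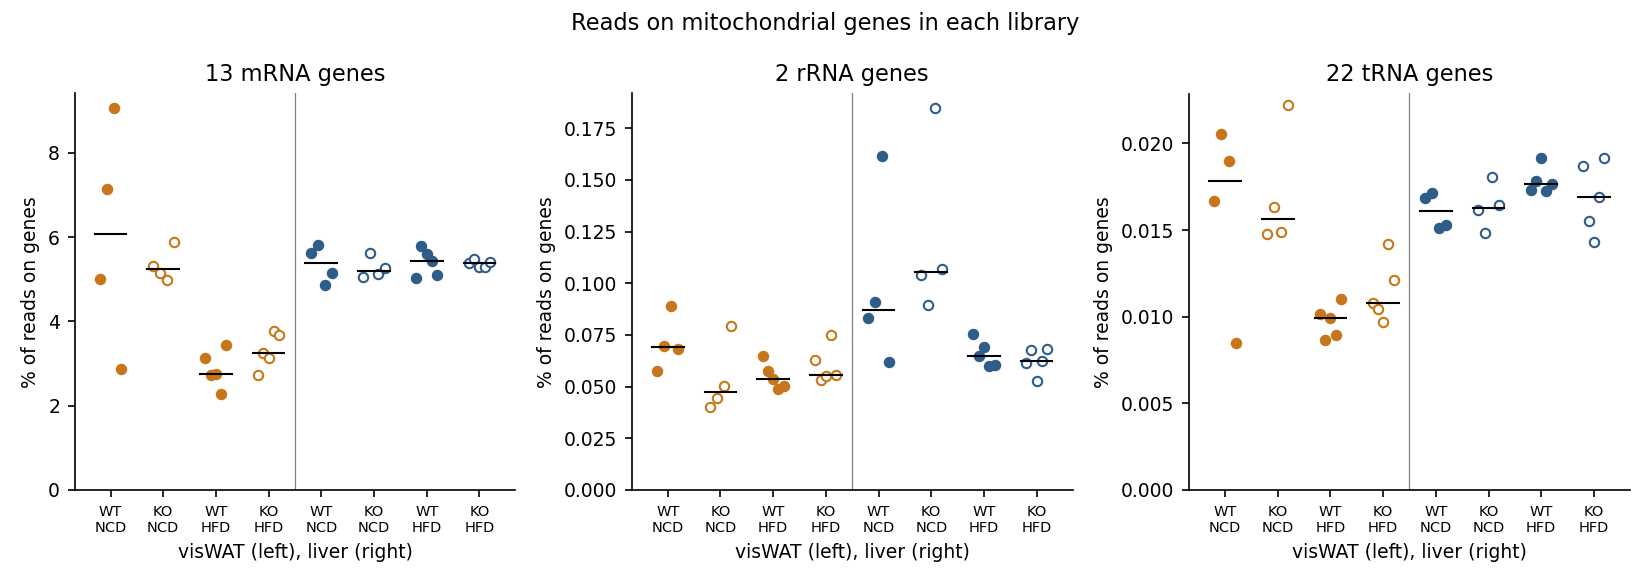
Percent of the reads on genes that lay on mitochondrial messenger, ribosomal and transfer RNA genes, one point per library, by tissue, genotype and diet, with a bar at each group median. In visWAT, messenger RNA shares of HFD-fed mice (2.28 to 3.77%) sit below those of all NCD-fed mice other than mouse 183 (4.99 to 9.07% without it), while liver stays between 4.86 and 5.82%.

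The 13 messenger RNAs fell into 2 levels with a wide gap. Counted per length, 7 of them had mean levels of 1578 FPKM (*mt-Nd5*) to 8066 FPKM (*mt-Co1*) in visWAT and of 3270 to 17340 FPKM in liver. These were *mt-Nd1*, *mt-Nd2*, *mt-Nd4*, *mt-Nd5* and *mt-Nd6* of complex I, *mt-Cytb* of complex III and *mt-Co1* of complex IV. The other 6 had mean levels of 2.51 FPKM (*mt-Atp8*) to 91.0 FPKM (*mt-Co2*) in visWAT and of 6.54 to 140 FPKM in liver, and together held 0.438% of messenger RNA reads. They were *mt-Co2* and *mt-Co3* of complex IV, *mt-Atp6* and *mt-Atp8* of the ATP synthase, and *mt-Nd3* and *mt-Nd4l* of complex I. Position and sequence of both sets were examined next.

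**Figure D2:**
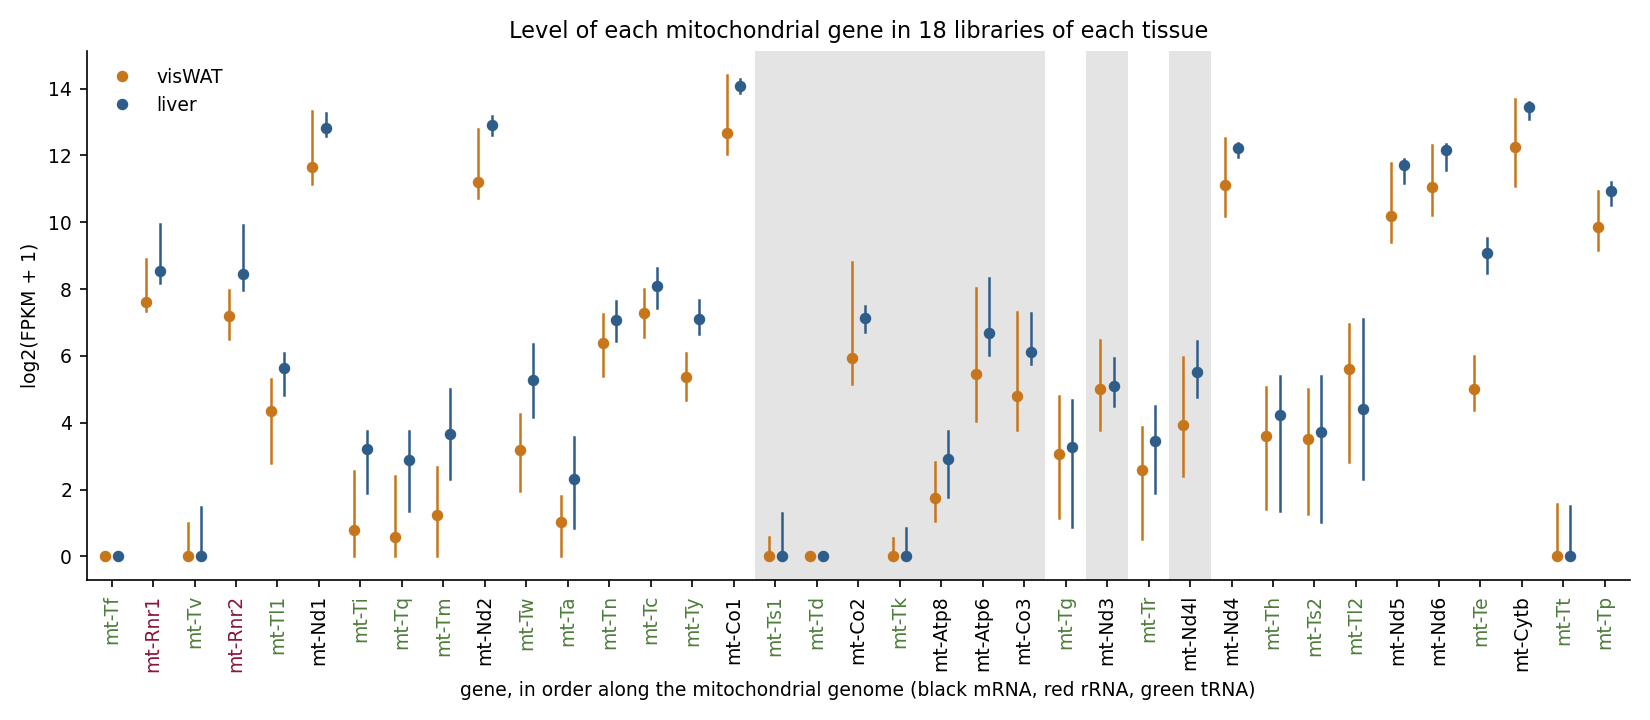
Levels of each mitochondrial messenger and ribosomal RNA gene and of transfer RNA genes in genome order, visWAT and liver in separate colours. Values are logarithms of FPKM after a pseudocount was added. For each gene and tissue, a line runs from the lowest to the highest library and a dot marks the median over libraries. The genes from *mt-Co2* to *mt-Nd4l* sit far below their neighbours *mt-Co1* and *mt-Nd4* in both tissues.

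All 6 messenger RNAs of the lower level stand next to each other, from *mt-Co2* at chrM:7013-7696 to *mt-Nd4l* at chrM:9877-10173. The minus strand of chromosome 1 holds 3067 bases identical to chrM:6394-9460 at chr1:24652199-24655265, and 1222 bases identical to chrM:9821-11042 at chr1:24650616-24651837. Of all 150-base windows of the 16299-base mitochondrial genome, 4329 (26.6%) had an identical nuclear counterpart, 150 bases being the read length. The share of windows centred in a gene that had such a counterpart was 100% for *mt-Co2*, *mt-Atp8* and *mt-Atp6*, 99.5% for *mt-Co3*, 93.6% for *mt-Nd4l* and 62.6% for *mt-Nd3*. Next in order were *mt-Nd4* with 58.2% and *mt-Co1* with 26.1%, both at the higher level, and the other 5 messenger RNAs had none. So the 6 genes at the lower level were the 6 with the largest share of windows also found in the nucleus, a grouping made after the values were seen. The treatment of reads that match several places is not given in the sources used here, and its part in these levels was not tested.

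Reads on *mt-Co2*, *mt-Atp6*, *mt-Co3* and *mt-Nd4l* were shared in like amounts with the pseudogenes annotated on the chromosome 1 copy. *mt-Co2* had a median of 56.6% of the reads that fell on it or its copy *Gm28661* in visWAT (46.7 to 71.3% over libraries) and of 57.5% in liver (50.4 to 64.9%). *mt-Atp6* had a median of 46.9% against *Gm10925* in visWAT (25.9 to 77.3%) and of 47.1% in liver. *mt-Co3* had 55.6% against *Gm28437* in visWAT and 55.5% in liver. Where only part of the gene is copied, the mitochondrial share was higher, and *mt-Co1* held 99.7% against *Gm29216* in visWAT and 99.9% in liver. Here all 1545 bases of *mt-Co1* are set against a pseudogene of 492 bases. Reads outside the copied part therefore count towards the mitochondrial share. *mt-Nd3*, whose 348 bases differ from the copy in 1 base alone, the T9461C printed above, held 87.4% against *Gm28438* in visWAT (80.9 to 90.5%) and 78.3% in liver (13.4 to 87.0%). For *mt-Nd4l* and *Gm10222*, a pair chosen after its values were seen, the shares were 56.9% and 59.3%.

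**Figure D3:**
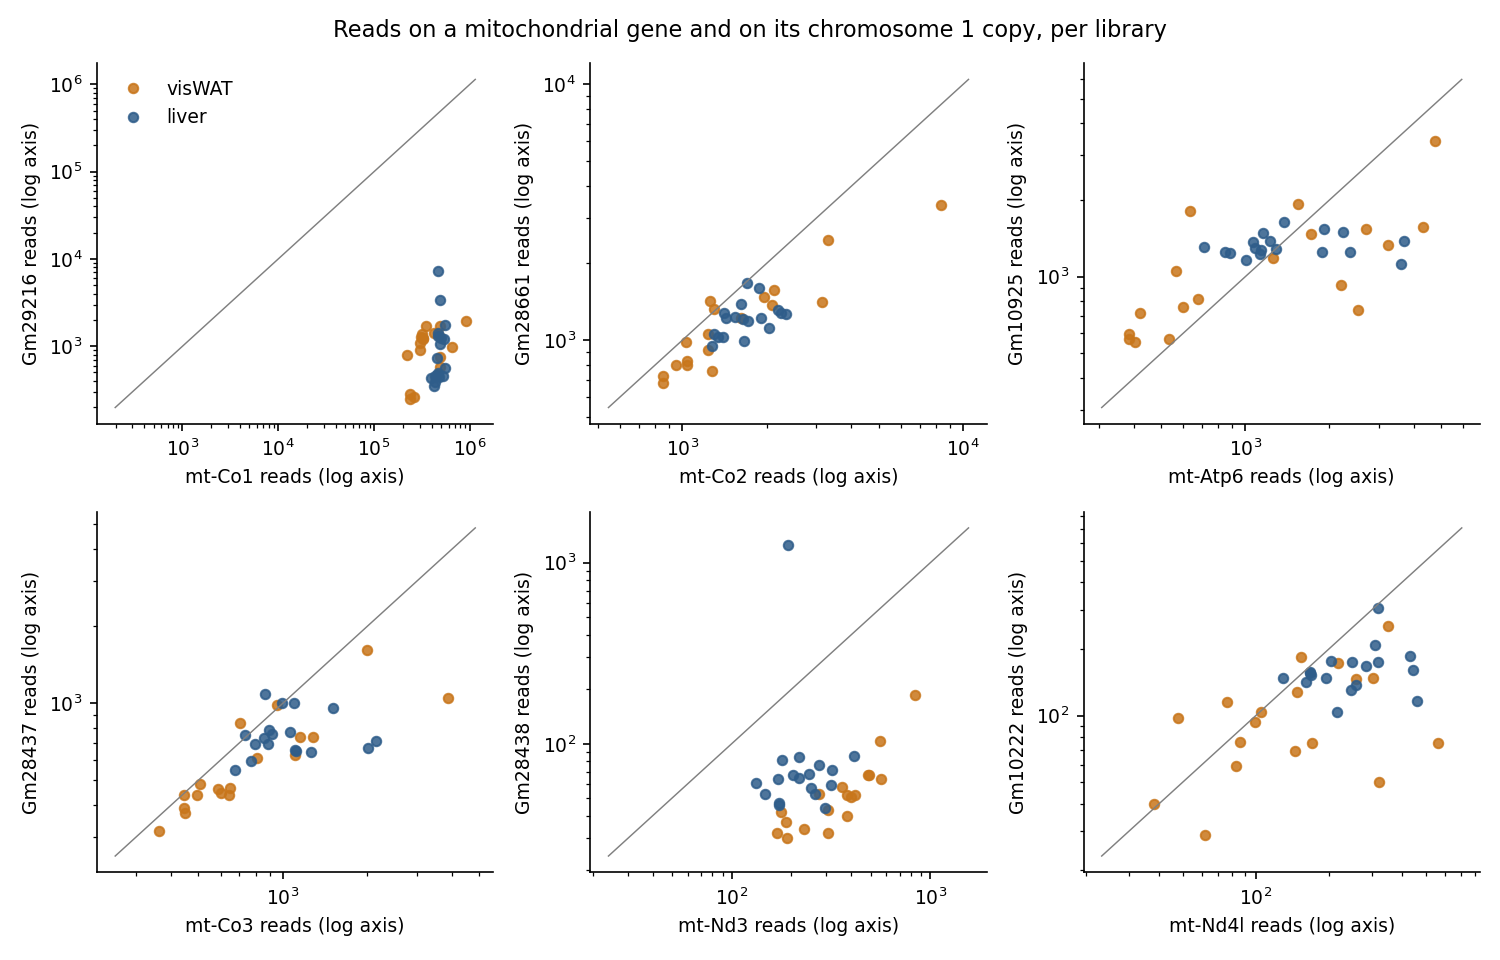
Reads on a mitochondrial gene against reads on its chromosome 1 copy, one point per library, by tissue, on log axes with a line of equal reads. For *mt-Co2*, *mt-Atp6* and *mt-Co3* the median mitochondrial share is between 46.9 and 57.5% in both tissues, whereas for *mt-Co1* the share lies above 98%. For *mt-Co1*, all 1545 bases of the gene are set against a pseudogene of 492 bases.

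The genes with a full-length copy also varied more between mice of one group. The highest level divided by the lowest within a group had a median of 2.05 for the 6 genes at the lower level and reached 9.15, against a median of 1.32 and a highest ratio of 3.66 for the other 7. Both highest ratios were in visWAT of WT mice on NCD, the group of mice 182 and 183. The 6 genes also held fewer reads, such as 7 to 53 per library for *mt-Atp8* against at least 22539 for *mt-Nd6*. The part of read depth in the spread was not tested. In visWAT of HFD-fed MlklAdi-KO mice, *mt-Atp6* was 23.0, 23.8, 24.01, 101 and 126 FPKM, while *mt-Cytb*, which has no identical window in the nucleus, was 3031 to 4936 FPKM in the same mice. The 6 genes at the lower level are therefore given apart where groups are compared.

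High-fat feeding went with lower mitochondrial messenger RNA in visWAT of WT mice. Of 13 messenger RNAs, 9 fell (limma, adjusted p under 0.05) and none rose, against 37.8% of all 14161 genes tested that changed in either direction. All 13 differences were negative, with a median log2 difference of -1.28 beside -0.01 over all genes tested. Among complex I genes, *mt-Nd5* was 1424, 2185, 2904 and 3486 FPKM on NCD and 679, 741, 863, 1069 and 1158 FPKM on HFD. Each NCD mouse was above each HFD mouse, and *mt-Nd5* fell by 1.42 on the log2 scale (SE 0.28, adjusted p = 0.00344). *mt-Nd6*, the one messenger RNA encoded on the light strand, had means of 3817 ± 1294 FPKM (SD, n = 4) on NCD and 1505 ± 214 FPKM (SD, n = 5) on HFD, a log2 difference of -1.28 (SE 0.25, adjusted p = 0.00359). *mt-Nd4* fell as well, with a log2 difference of -1.28 (SE 0.29, adjusted p = 0.00744). *mt-Nd1* had a log2 difference of -0.93 (adjusted p = 0.0541) and *mt-Nd2* of -0.67 (adjusted p = 0.166), and neither passed the test.

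In complex III, *mt-Cytb* of WT visWAT was 4762, 6128, 9129 and 13260 FPKM on NCD and 2154 to 3717 FPKM with a median of 2872 FPKM on HFD, a log2 difference of -1.41 (SE 0.31, adjusted p = 0.00613). In complex IV, *mt-Co1*, the catalytic subunit, was 7293, 8913, 13515 and 21810 FPKM on NCD and 4212 to 6260 FPKM on HFD, a log2 difference of -1.18 (SE 0.32, adjusted p = 0.017). For both genes the groups did not overlap, and mouse 182 was the highest and mouse 183 the lowest of the NCD mice. Of the 6 genes with copies, *mt-Atp6* (-1.98), *mt-Co3* (-1.90), *mt-Nd4l* (-2.02) and *mt-Nd3* (-1.19) fell, and *mt-Co2* (-1.54, adjusted p = 0.0505) and *mt-Atp8* (-0.78, adjusted p = 0.0693) did not pass. Without mice 182 and 183, 12 of the 13 messenger RNAs passed, all lower on HFD, and the median log2 difference was -1.33. In that fit 52.1% of all 14015 genes tested were called in either direction.

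The scale mattered for these calls. Put on the TPM scale, where each library sums to the same total, all genes tested had a median log2 difference of 0.35 between the diets and 94.6% of called genes were higher on HFD, against 58.1% on the deposited scale. There the messenger RNAs had a median of -0.80, which is -1.16 relative to all genes, and 1 of 13 (*mt-Nd4l*) passed. Relative to nuclear gene reads the median of all genes was 0.13, the median of messenger RNAs was -1.10, and 7 of 13 passed. FPKM of the visWAT library of mouse 183 summed to 564718, of which 255951 lay on seminal vesicle genes. In visWAT of the other WT mice on NCD, FPKM summed to 243503 to 309820. In MlklAdi-KO visWAT the median of all genes between the diets was -0.004 on the TPM scale. The part of mouse 183 in the TPM results of comparisons that use the WT NCD group was not tested.

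In visWAT of MlklAdi-KO mice, HFD also went with lower messenger RNA. Here 8 of 13 messenger RNAs fell and none rose, against 43.7% of all genes called in either direction, with a median log2 difference of -0.74 beside 0.01 over all genes. *mt-Nd5* was 2078, 2153, 2163 and 2548 FPKM on NCD and 732, 965, 1016, 1079 and 1153 FPKM on HFD. The groups did not overlap, and the log2 difference was -1.19 (SE 0.14, adjusted p = 0.000477). *mt-Nd6* fell by 0.99 (SE 0.15), *mt-Cytb* by 0.75 (SE 0.18), *mt-Co1* by 0.74 (SE 0.14), *mt-Nd4* by 0.72 (SE 0.15) and *mt-Nd1* by 0.37 (SE 0.13) on the log2 scale. *mt-Nd1* passed narrowly (adjusted p = 0.0373) and its groups overlapped, with 3621 to 4730 FPKM on NCD and 2927 to 3770 FPKM on HFD. Of the copied genes, *mt-Co2* (-0.94) and *mt-Co3* (-0.84) fell. *mt-Nd2* had a log2 difference of -0.08 (adjusted p = 0.654), and it stood at 2283 to 3103 FPKM on NCD and at 2130 to 2789 FPKM on HFD.

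Whether the diet difference depended on genotype was tested directly in all 18 visWAT libraries. No mitochondrial gene passed for the product of genotype and diet in limma, where 0% of all 14136 genes were called, and none passed in edgeR or DESeq2 or without mice 182 and 183. At an unadjusted p under 0.05 there were 3 of 13 messenger RNAs, 2 of 2 ribosomal RNAs and 4 of 16 transfer RNAs. All 13 messenger RNAs had a positive product term, meaning a less negative diet difference in MlklAdi-KO mice, with a median of 0.55 on the log2 scale. For *mt-Nd5* it was 0.23 (SE 0.32, adjusted p = 0.762), and for *mt-Cytb* it was 0.66 (SE 0.36, adjusted p = 0.426).

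**Figure D4:**
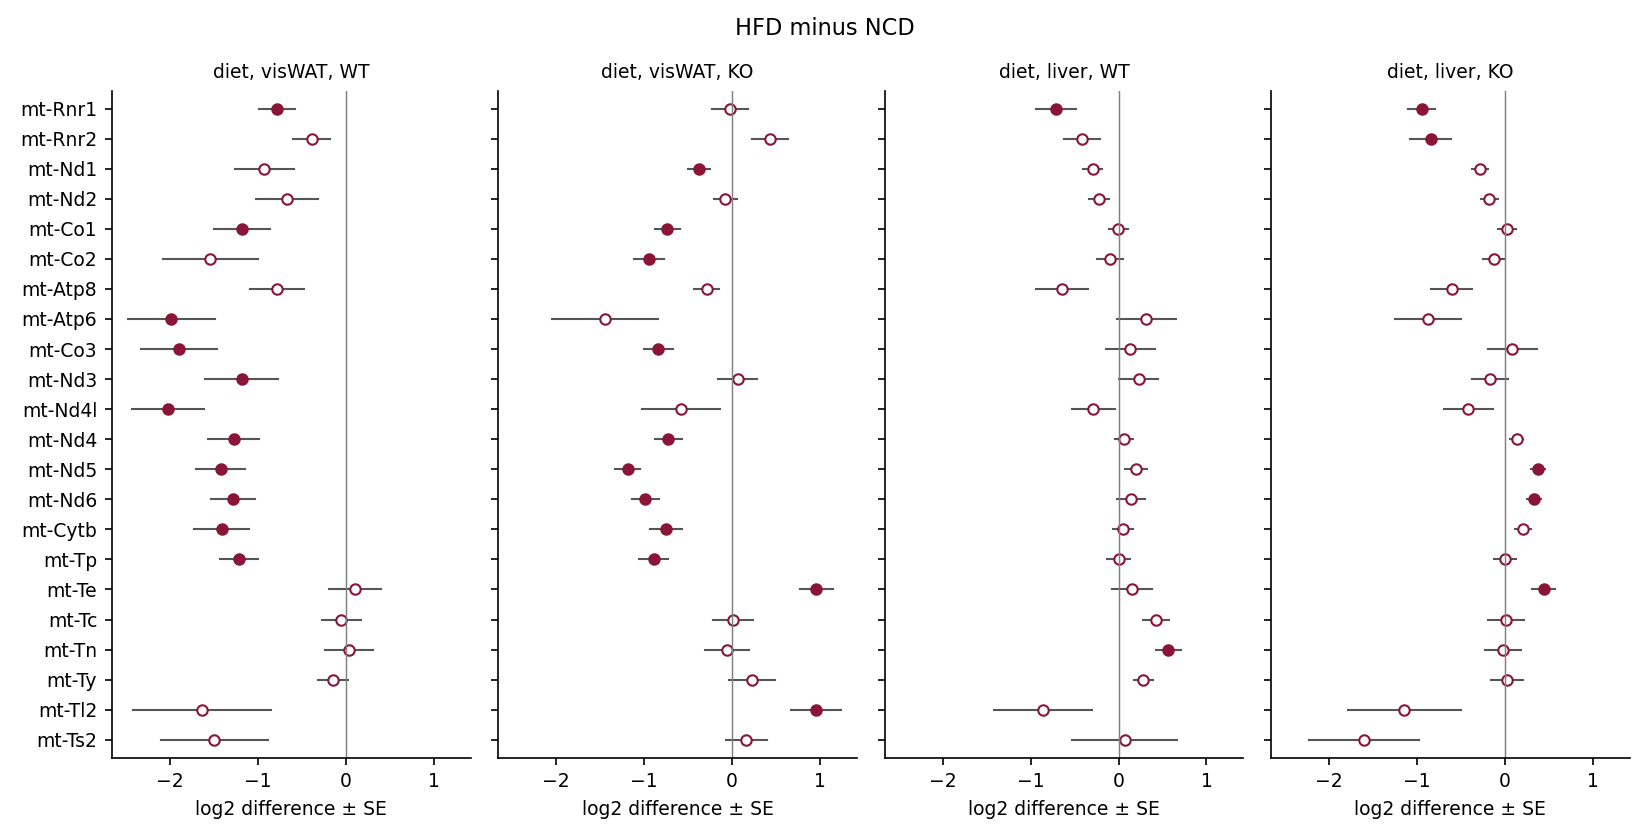
Log2 difference between HFD and NCD with its standard error for the 13 messenger, 2 ribosomal and 7 of the transfer RNA genes, by tissue and genotype, with filled points past the test. In visWAT, 13 of 13 messenger RNAs lie below zero in WT and 12 of 13 in MlklAdi-KO mice (medians -1.28 and -0.74), and they spread around zero in liver (medians 0.05 and -0.12).

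Cell type markers moved with the diet in visWAT. The 9 mature adipocyte markers, all detected, summed to 10758 to 21966 FPKM in NCD-fed and 5038 to 6426 FPKM in HFD-fed WT mice, and to 16903 to 21229 against 5668 to 12566 FPKM in MlklAdi-KO mice. The 9 macrophage markers, all detected, summed to 180 to 277 FPKM on NCD and 1744 to 2539 FPKM on HFD in WT mice, and to 239 to 416 against 647 to 2300 FPKM in MlklAdi-KO mice. Their part in the mitochondrial values was not tested, and in bulk tissue fewer cells of a type and less RNA per cell cannot be told apart.

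The nuclear partners of these genes did not all move with them. Of 76 nuclear genes for respiratory chain subunits, 38 fell and none rose on HFD in WT visWAT (median log2 difference -0.47), where 37.8% of all genes were called in either direction and 15.8% as lower. In MlklAdi-KO visWAT 12 fell and 1 rose (median -0.08), a share of 17.1% beside 43.7% of all genes. Of the 55 tested genes for mitochondrial transcription and RNA handling, 21 fell and 2 rose in WT visWAT, a share of 41.8% beside 37.8% of all genes. In MlklAdi-KO visWAT 14 fell and 4 rose, a share of 32.7% beside 43.7%. For the product of genotype and diet in visWAT, 0 of 76 respiratory subunit genes and 0 of 55 RNA handling genes passed in limma. In that fit 0% of 14136 genes were called. At an unadjusted p under 0.05 there were 17 and 5 of them, beside 13.2% of all genes. Without mice 182 and 183, 55 respiratory subunit genes fell and 2 rose and 25 RNA handling genes fell and 3 rose in WT visWAT, where 52.1% of all genes were called. *Hsd17b10*, a subunit of the mitochondrial ribonuclease P that cuts transfer RNAs at their 5′ end, had a mean of 61.8 ± 8.92 FPKM (SD, n = 4) on NCD and 31.6 ± 0.958 FPKM (SD, n = 5) on HFD in WT visWAT. It fell by 0.93 on the log2 scale (SE 0.10, adjusted p = 8.7e-05). *Trub2*, a pseudouridine synthase of mitochondrial RNA, had means of 9.37 ± 6.60 FPKM (SD, n = 4) on NCD and 2.98 ± 0.250 FPKM (SD, n = 5) on HFD. It fell by 1.196, and without mice 182 and 183 it fell by 0.89 (adjusted p = 0.00227). *Trit1*, which modifies transfer RNAs beside the anticodon, fell by 0.62. In MlklAdi-KO visWAT the 3 genes of the list with the largest changes were *Rexo2*, a mitochondrial exonuclease for short RNAs, which rose by 0.65, the ribosomal RNA methyltransferase *Mrm1*, which rose by 0.54, and *Mterf3*, which acts in mitochondrial ribosome assembly and transcription and fell by 0.41.

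Between MlklAdi-KO and WT mice, no mitochondrial gene passed the test in visWAT on either diet. On HFD, 0 of 13 messenger RNAs, 0 of 2 ribosomal RNAs and 0 of 16 transfer RNAs tested passed in limma, where 0.0215% of 13963 genes were called. At an unadjusted p under 0.05 there were 6 messenger RNAs and 7 transfer RNAs, beside 3003 of all genes (21.5%). edgeR called none of the members, and DESeq2 called 1, *mt-Nd3*. All 13 messenger RNA differences were positive in MlklAdi-KO mice, with a median of 0.37 on the log2 scale. *mt-Co3* was the one messenger RNA whose groups did not overlap, with 12.8, 16.0, 18.1, 18.8 and 19.1 FPKM in WT and 19.2, 20.7, 21.1, 25.7 and 27.7 FPKM in MlklAdi-KO mice. Its log2 difference was 0.41 (SE 0.13, adjusted p = 0.221), and it is one of the copied genes. The gap was narrow, 19.1 against 19.2 FPKM, and the share of all genes without overlap was not counted. *mt-Cytb* was 2154, 2754, 2872, 3233 and 3717 FPKM in WT and 3031, 3332, 3482, 4897 and 4936 FPKM in MlklAdi-KO mice (log2 difference 0.41, SE 0.19, adjusted p = 0.238). The highest 2 of the MlklAdi-KO values, mice 156 and 157, came from the libraries with the fewest macrophage marker reads on HFD, at 714 and 647 FPKM.

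On NCD, 0 of 13 messenger RNAs, 0 of 2 ribosomal RNAs and 0 of 14 transfer RNAs passed in visWAT, where 0% of 14063 genes were called and 528 genes had an unadjusted p under 0.05. Among members that count was 4. edgeR and DESeq2 also called 0 members. The messenger RNA differences pointed the other way from those on HFD, with 11 of 13 negative in MlklAdi-KO mice and a median of -0.29, but the WT mice spread widely, *mt-Nd1* being at 3139, 3583, 5895 and 10393 FPKM in WT and at 3621 to 4730 FPKM in MlklAdi-KO mice. With mice 182 and 183 left out, no member passed either.

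**Figure D5:**
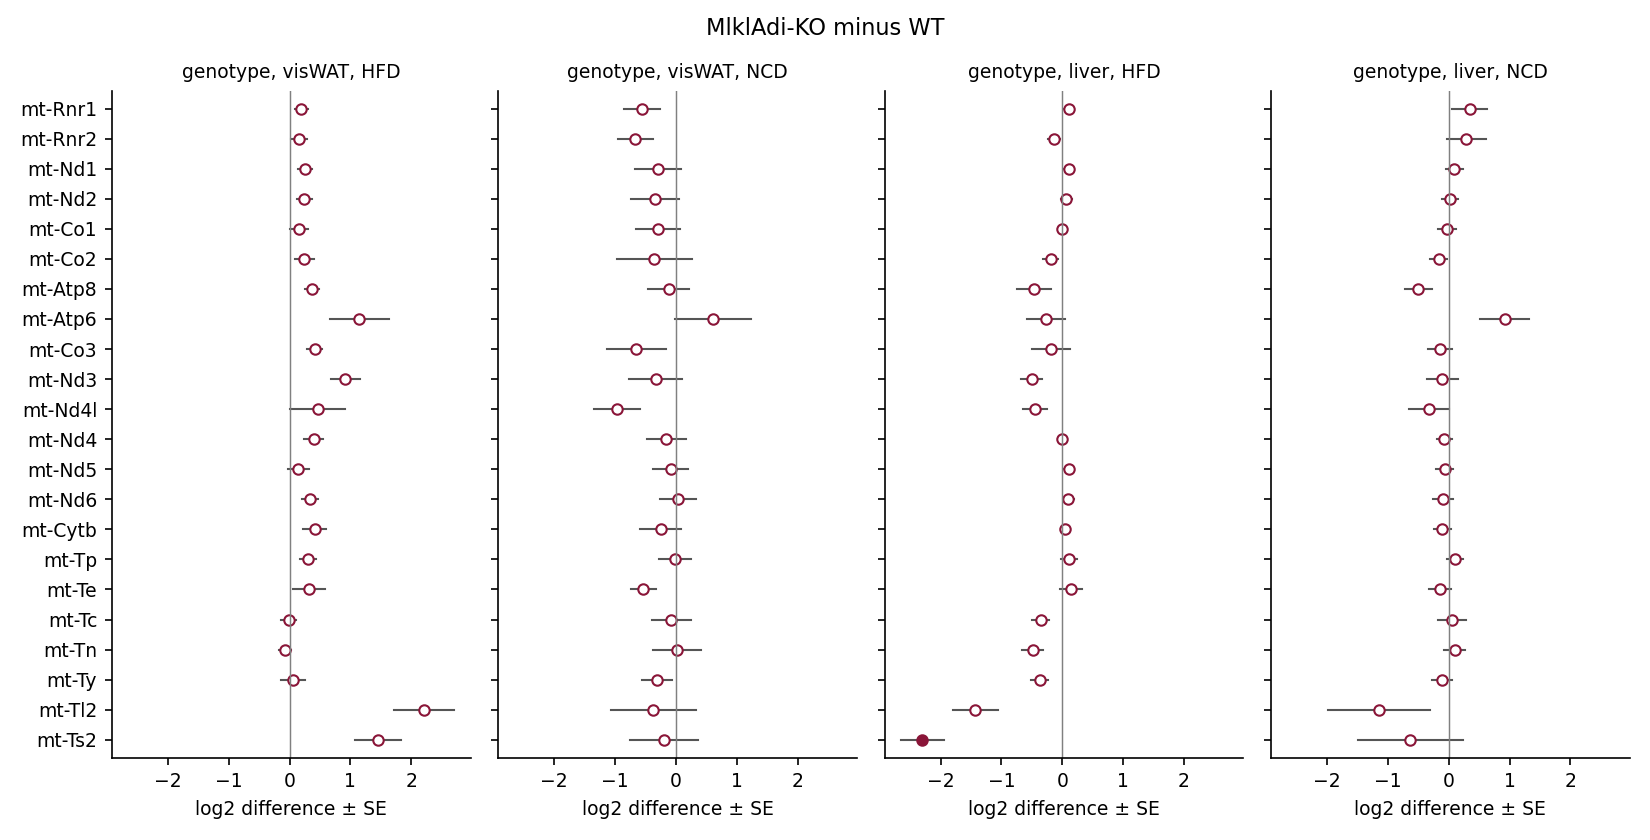
Log2 difference between MlklAdi-KO and WT mice with its standard error for the 13 messenger, 2 ribosomal and 7 of the transfer RNA genes, by tissue and diet, with the filled point for *mt-Ts2* in liver on HFD past the test. In visWAT all 13 messenger RNAs lie above zero on HFD and 11 of 13 below zero on NCD, none past the test.

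In liver, few messenger RNAs of the mitochondrial genome passed a test between groups. Between genotypes, 0 of 13 passed on HFD (0.197% of 13215 genes called) and 0 of 13 on NCD (0.00758% of 13193 genes called). Members at an unadjusted p under 0.05 were 2 messenger RNAs on HFD and 1 on NCD, and edgeR and DESeq2 called 0 messenger RNAs on either diet. *mt-Co1* was 14998 to 19983 FPKM over all liver libraries and had a log2 difference between genotypes of -0.00 (SE 0.06) on HFD. With diet, 0 of 13 messenger RNAs passed in WT liver (25.3% of 13330 genes called), where edgeR and DESeq2 called 1, *mt-Nd1*, as lower, as did limma without mice 182 and 183 (-0.44, adjusted p = 0.0161). In MlklAdi-KO liver (22.2% of 13149 genes called), *mt-Nd5* and *mt-Nd6*, neighbours on opposite strands whose ends overlap by 14 bases, rose on HFD.

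*mt-Nd5* was 2605, 2739, 2878 and 3134 FPKM on NCD and 3341, 3670, 3760, 3802 and 3821 FPKM on HFD in MlklAdi-KO liver, without overlap, a log2 difference of 0.38 (SE 0.08, adjusted p = 0.0103). *mt-Nd6* was 3328 to 4028 FPKM on NCD and 4561 to 4798 FPKM on HFD, a log2 difference of 0.33 (SE 0.08, adjusted p = 0.0145). In WT liver the differences for the same genes were 0.20 (SE 0.13) and 0.14 (SE 0.16), and the product of genotype and diet in liver did not pass for any member (limma, 0.0151% of 13248 genes called, with 3 members at an unadjusted p under 0.05). edgeR and DESeq2 called none for that product, and limma none without mice 182 and 183, as between genotypes in liver on NCD.

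The diet difference itself differed between the tissues of WT mice. The product of diet and tissue passed for 9 of 13 messenger RNAs, all with a positive term, meaning a more negative diet difference in visWAT, against 40% of 14746 genes called in either direction. It was 1.62 on the log2 scale for *mt-Nd5* (SE 0.32, adjusted p = 0.00086), 1.46 for *mt-Cytb* (SE 0.35), 1.43 for *mt-Nd6* (SE 0.32), 1.34 for *mt-Nd4* (SE 0.32) and 1.18 for *mt-Co1* (SE 0.36). *mt-Nd1* (0.63) and *mt-Nd2* (0.44) did not pass. Of the other members, *mt-Tp* (1.21) and *mt-Tl1* (-0.62) passed. With the mouse as a replicate block, 9 members in all passed instead of 11, and 17 passed without mouse 183, or without mice 182 and 183. Without both mice, 46.2% of all 14649 genes tested were called. On the TPM scale, where the median over all genes was -0.34, 2 members passed.

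Liver stood above visWAT in FPKM for all 13 messenger RNAs, and 12 of 13 passed the test. Of all 14657 genes tested, 87% were called in either direction and 44.5% as higher in liver. *mt-Cytb* was 10980.4 ± 979 FPKM (SD, n = 18) in liver and 5206 ± 2739 FPKM (SD, n = 18) in visWAT, a log2 difference of 1.23 (SE 0.15, adjusted p = 1.8e-09). *mt-Nd2* had the largest difference of the 7 genes at the higher level (1.60, SE 0.11), and *mt-Nd3* did not pass (0.26, SE 0.18). This order rests on the scaling. As a share of gene reads, the visWAT libraries of NCD-fed mice (2.96 to 9.18%) surrounded those of liver (5.03 to 5.93%). On the TPM scale the median of all genes moved to -0.73, messenger RNAs had a median of 0.24, and 3 of 13 passed, of which 2 were above and 1, *mt-Nd3* at -0.69, was below. The 2 tissues were also extracted with different kits, so that kit and tissue cannot be told apart.

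Of the ribosomal RNAs, *mt-Rnr1* of the small subunit fell on HFD in WT visWAT and in liver of both genotypes, and *mt-Rnr2* of the large subunit fell in MlklAdi-KO liver. In WT visWAT, *mt-Rnr1* was 215, 287, 309 and 479 FPKM on NCD and 162, 174, 176, 193 and 194 FPKM on HFD, groups that did not overlap. It fell by 0.78 on the log2 scale (SE 0.20, adjusted p = 0.0138), while *mt-Rnr2* had a difference of -0.39 (adjusted p = 0.169). Without mice 182 and 183 the difference of *mt-Rnr1* was -0.52 (adjusted p = 0.0176), and on the TPM scale it was -0.31 and did not pass (adjusted p = 0.466). In MlklAdi-KO visWAT neither passed, with -0.02 for *mt-Rnr1* (168 to 333 FPKM on NCD, 179 to 258 FPKM on HFD) and 0.43 for *mt-Rnr2* (adjusted p = 0.123). Reads on ribosomal RNA genes per 1000 messenger RNA reads were 7.59 to 13.5 in visWAT of NCD-fed mice other than mouse 183, which had 23.7, and 14.6 to 23.0 in HFD-fed mice.

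In liver that ratio was 12.03 to 36.1 on NCD and 9.91 to 14.997 on HFD, with ranges that overlapped. *mt-Rnr1* was 575, 612, 614 and 979 FPKM on NCD and 298, 350, 368, 370 and 376 FPKM on HFD in MlklAdi-KO liver. The groups did not overlap, and *mt-Rnr1* fell by 0.95 on the log2 scale (SE 0.15, adjusted p = 0.0024). *mt-Rnr2* of the same mice was 379, 487, 497 and 970 FPKM on NCD and 250 to 346 FPKM on HFD and fell by 0.84 (SE 0.23, adjusted p = 0.0286), a call lost without any of mice 151, 153, 156 and 199 (adjusted p up to 0.063) or with no filter on low genes (0.0714). In WT liver *mt-Rnr1* fell by 0.72 (SE 0.23, adjusted p = 0.0462), from 358 to 908 FPKM on NCD to 289 to 355 FPKM on HFD. That call was lost when any of mice 154, 155, 161, 162, 164, 165 and 180 was left out (adjusted p 0.0625 to 0.0946), with no filter on low genes (0.101), on the TPM scale (0.0783) and relative to nuclear reads (0.0675). It passed without mouse 182 (-0.46, adjusted p = 0.0295), without mouse 183 (-0.91, adjusted p = 0.016) and without both (-0.62, adjusted p = 0.00674). The highest NCD values were those of mouse 182 in WT and mouse 197 in MlklAdi-KO liver. The liver library of mouse 182 also held 129 FPKM of the 9 macrophage markers against 37.6 to 47.5 FPKM in the other WT livers on NCD, and their part in its value was not tested.

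For the ribosomal RNAs, liver was above visWAT by 1.002 (*mt-Rnr1*, SE 0.12) and 1.38 (*mt-Rnr2*, SE 0.14) on the log2 scale of FPKM, and no genotype comparison passed for either, the one unadjusted p under 0.05 being that of *mt-Rnr2* in visWAT on NCD (-0.67, adjusted p = 0.916).

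Transfer RNA genes held few reads, and most of those reads lay on few genes. *mt-Tp* had 83136 reads over the 36 libraries (64.7% of transfer RNA reads) and *mt-Te* 13004 (10.1%), followed by *mt-Tc* with 11969, *mt-Tn* with 6449 and *mt-Ty* with 4696. These 5 genes made up 92.9% of transfer RNA reads, and all 5 are encoded on the minus strand, opposite to most messenger RNAs. The 8 minus-strand transfer RNA genes together held 119595 reads and the 14 plus-strand genes 8835. Since strand use in counting is not given in the sources used here, reads of the long plus-strand precursor over these genes cannot be told apart from their own. *mt-Ts1* had 3 reads in all, *mt-Tk* had 2, and *mt-Tf* and *mt-Td* had 0, which allows up to 3 reads by counting error alone, so these genes were not detectable here. All windows centred in *mt-Ts1*, *mt-Td* and *mt-Tk* (100%) had an identical nuclear counterpart, and none of *mt-Tf* did. A median of at least 100 reads in a tissue was reached by 6 of 22 genes, and 8 had a median under 10 in both tissues.

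*mt-Te*, which lies on the minus strand between *mt-Nd6* and *mt-Cytb*, was the transfer RNA gene with the widest tissue difference among the 5. It was 20.02 to 62.4 FPKM (44 to 127 reads) in visWAT and 357 to 738 FPKM (451 to 850 reads) in liver, with no overlap between any visWAT and any liver library. Its log2 difference was 3.91 (SE 0.12, adjusted p = 5.5e-26), against 0.97 for *mt-Tp*, 0.83 for its neighbour *mt-Nd6* and 1.23 for *mt-Cytb*. On the TPM scale the difference was 2.94 and relative to nuclear gene reads 3.16, where the medians of all genes were -0.73 and -0.56. In MlklAdi-KO visWAT *mt-Te* rose on HFD, from 20.02, 20.8, 23.9 and 25.0 FPKM to 31.3, 38.1, 41.3, 55.5 and 62.4 FPKM, a log2 difference of 0.96 (SE 0.19, adjusted p = 0.00382). In WT visWAT it was 23.3 to 46.8 FPKM on NCD and 22.05 to 55.0 FPKM on HFD, with a difference of 0.11 (adjusted p = 0.803). It also rose in MlklAdi-KO liver (0.44, SE 0.13, adjusted p = 0.036), and the product of genotype and diet in visWAT was 0.85 (SE 0.37, adjusted p = 0.36). The visWAT library of MlklAdi-KO mouse 156 on HFD held 980 FPKM of hepatocyte markers, and its part in the rise of *mt-Te* was not tested.

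*mt-Tp* fell on HFD in visWAT of both genotypes. It was 984, 1387, 1841 and 1967 FPKM on NCD and 578, 581, 639, 705 and 724 FPKM on HFD in WT visWAT, without overlap, and fell by 1.21 on the log2 scale (SE 0.21, adjusted p = 0.00168), or by 1.31 without mice 182 and 183 (adjusted p = 0.000334). In MlklAdi-KO visWAT it fell by 0.89 (SE 0.16, adjusted p = 0.00269), and in liver its diet differences were 0.00 in both genotypes. *mt-Tn*, *mt-Tc* and *mt-Ty*, which lie side by side, did not pass in visWAT, with log2 differences of 0.03, -0.05 and -0.14 in WT and of -0.06, 0.01 and 0.23 in MlklAdi-KO visWAT. In WT liver *mt-Tn* rose by 0.57 (SE 0.14, adjusted p = 0.015), from 102 to 137 FPKM on NCD to 133 to 199 FPKM on HFD.

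Of the other transfer RNA genes past the test with diet, those given here were named after their values were seen and had low counts. Not all that rose in MlklAdi-KO visWAT are named. *mt-Tw* (tryptophan), which overlaps *mt-Nd2* by 2 bases, rose in all 4 diet comparisons. In WT visWAT it was 6, 6, 7 and 14 reads on NCD and 22 to 39 reads on HFD, a log2 difference of 1.63 (SE 0.20, adjusted p = 0.000228). Its log2 difference was 0.92 in MlklAdi-KO visWAT, 1.16 in WT liver and 0.90 in MlklAdi-KO liver. *mt-Tl1* (leucine), which separates *mt-Rnr2* from *mt-Nd1*, rose in visWAT of both genotypes (1.03 in WT, SE 0.20, and 1.43 in MlklAdi-KO, SE 0.21) and in WT liver (0.41, SE 0.12). *mt-Th* (histidine) fell in WT visWAT (-1.73, SE 0.54), where it was 12 to 59 reads on NCD and 4 to 23 reads on HFD. Without mice 182 and 183, *mt-Tw* (1.51 in WT visWAT, 1.16 in WT liver), *mt-Tl1* in WT visWAT (1.203), *mt-Th* (-1.72) and *mt-Tn* in WT liver (0.65) passed, and *mt-Tl1* in WT liver did not (0.30, adjusted p = 0.103).

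In all, 2 of 15 transfer RNA genes tested rose and 2 fell in WT visWAT, where 37.8% of all genes were called, and 4 of 16 rose and 1 fell in MlklAdi-KO visWAT, where 43.7% were. In liver 3 of 16 rose in WT and 2 of 16 in MlklAdi-KO mice, beside 25.3% and 22.2% of all genes. Each of these 4 shares, 26.7, 31.2, 18.8 and 12.5%, was below that of all genes.

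*mt-Ts2* was the only mitochondrial gene past the test between genotypes, and it rests on few reads. In liver on HFD it was 11, 16, 19, 27 and 28 reads in WT and 1, 2, 3, 5 and 5 reads in MlklAdi-KO mice, which are 9.94 to 28.7 and 1.05 to 5.18 FPKM. The groups did not overlap, and *mt-Ts2* fell by 2.30 on the log2 scale (SE 0.35, adjusted p = 0.0385), against 0.197% of all genes called. The call was lost when any of 8 single mice was left out, namely 151, 152, 153, 156, 154, 161, 162 and 164, with an adjusted p of up to 0.125. It passed in edgeR (adjusted p = 0.047) and DESeq2 (0.000486), and did not with a pseudocount of 0.1 (0.0512) or with no filter on low genes (0.11). DESeq2 called 3 transfer RNA genes as lower in this comparison. In visWAT on HFD the order was the opposite, with 3 to 17 reads in WT and 19 to 29 in MlklAdi-KO mice, a log2 difference of 1.45 (SE 0.37, adjusted p = 0.221).

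The adjoining *mt-Tl2* showed the same order of genotypes as *mt-Ts2* in each tissue. In visWAT on HFD it was 13, 19, 20, 33 and 111 reads in WT and 113, 127, 134, 160 and 188 reads in MlklAdi-KO mice, and in FPKM mouse 154 alone of the WT mice (51.5) lay within the MlklAdi-KO range (48.4 to 82.4). Its log2 difference was 2.21 (SE 0.50, adjusted p = 0.221), and without mouse 154 it was 2.71 (adjusted p = 0.00667). In liver on HFD it was 19, 22, 34, 62 and 64 reads in WT and 7 to 17 reads in MlklAdi-KO mice, a difference of -1.43 (SE 0.37, adjusted p = 0.17). The product of genotype and tissue on HFD passed for these 2 genes and no other member, against 0.13% of 14620 genes called, with -3.75 for *mt-Ts2* (SE 0.55, adjusted p = 0.00762) and -3.64 for *mt-Tl2* (SE 0.65, adjusted p = 0.033). With the mouse as a replicate block neither passed, the adjusted p being 0.0512 for *mt-Ts2* and 0.135 for *mt-Tl2*. Of all transfer RNA genes tested in liver on HFD, 13 of 16 were lower in MlklAdi-KO mice with a median of -0.50, and 10 had an unadjusted p under 0.05, beside 1664 of all 13215 genes (12.6%).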

How the data were processed

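Epididymal visWAT and liver of 18 mice were grouped by the genotype, diet and mouse number in the labels. The authors selected polyadenylated RNA, sequenced it in pairs of 150 bases, mapped it to mm39 with HISAT2 and counted it on genes with featureCounts 1.5.0-p3. The strand setting, the annotation release and the treatment of reads with several matches are not given in the sources used here. The authors deposited FPKM for all genes, with gene lengths, and raw counts for the genes of their comparison tables, from which the library size behind FPKM and whole reads were recovered (100% of values within 0.001 of a whole number). The authors' own log2 fold changes and p-values in those tables were not used, nor were 72 further columns per sample that repeat normalized values of the same libraries.

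The test was limma 3.58.1 in R 4.3.3 on log2(FPKM + 1), which understates changes of low genes, with an empirical Bayes trend. Genes needed a mean of at least 0.5 FPKM, and p-values were adjusted by Benjamini-Hochberg over all genes tested, with a call at an adjusted p under 0.05. Differences are MlklAdi-KO minus WT, HFD minus NCD, and liver minus visWAT. edgeR 4.0.16 and DESeq2 1.42.0 on recovered reads, other pseudocounts, filters and scales, and leaving out mice were alternatives. The limma step was tested on simulated data. Every 150-base window of the mitochondrial genome was searched in the nuclear genome of GRCm39 through words of 31 bases. In 64 pairs of libraries of one group, counts differed by more than counting error (chi-square per gene at least 9.82). Mouse numbers pair the tissues, since both came from the same animal, and deviations of a mouse's 2 libraries correlated between -0.05 and 0.22. Named were all messenger and ribosomal RNA genes, the 5 transfer RNA genes with the most and the 3 with the fewest reads. So were transfer RNA genes called between genotypes, and the 3 called genes of the mitochondrial RNA handling list with the largest changes. Of the genes on the longest nuclear copy, the 5 with the most reads were named. Lists of nuclear respiratory subunits and of genes for mitochondrial content were counted as well. The members and gene lists were chosen with earlier results of these data known. Libraries of a group are separate mice, so p-values of comparisons within a tissue measure the spread between mice. Fits across tissues treated the 2 libraries of a mouse as independent, and the replicate block by mouse was an alternative there.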

Additional observations from a re-analysis of the deposited data

Results flagged for a closer look

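In 202 groups of 4 or 5 libraries, single genes and shares were checked for a value far from the others, and 9 such values were found, where chance gives about 1 in 20 groups. In visWAT these were *mt-Tc* in MlklAdi-KO mouse 199 on NCD (254 FPKM, the others 116 to 138), *mt-Tl2* in WT mouse 154 on HFD (51.5 FPKM, the others 6.15 to 14.8), *mt-Ty* in MlklAdi-KO mouse 156 on HFD (67.3 FPKM, the others 35.1 to 44.1) and *mt-Tk* in MlklAdi-KO mouse 157 on HFD (0.479 FPKM from 1 read, the others 0). In liver they were *mt-Rnr1* in MlklAdi-KO mouse 197 on NCD (979 FPKM, the others 575 to 614), *mt-Nd4* in MlklAdi-KO mouse 166 on NCD (4108 FPKM, the others 4527 to 4544), *mt-Tk* in WT mouse 155 on HFD (0.821 FPKM from 1 read, the others 0), *mt-Co2* in MlklAdi-KO mouse 151 on HFD (149 FPKM, the others 115 to 125) and *mt-Co3* in MlklAdi-KO mouse 156 on HFD (147 FPKM, the others 53.3 to 72.8).

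The test of the difference itself passed for 12 named genes. For diet between the tissues of WT mice the log2 differences were 1.18 for *mt-Co1*, 2.30 for *mt-Atp6*, 2.03 for *mt-Co3*, 1.41 for *mt-Nd3*, 1.34 for *mt-Nd4*, 1.62 for *mt-Nd5*, 1.43 for *mt-Nd6*, 1.46 for *mt-Cytb*, 1.21 for *mt-Tp* and 1.73 for *mt-Nd4l*, each with the more negative diet difference in visWAT. For genotype between the tissues of HFD-fed mice they were -3.75 for *mt-Ts2* and -3.64 for *mt-Tl2*, and with the mouse as a replicate block neither passed (adjusted p = 0.0512 and 0.135). No cause of these values was tested.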

How the results depend on the processing

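Numbers of mitochondrial genes past the test moved by over 1.5 times in these cases. With no filter on low genes, 0 passed between genotypes in liver on HFD (1 in the main analysis), 7 with diet in WT visWAT (14), 8 in MlklAdi-KO visWAT (13), 2 in WT liver (4), 2 in MlklAdi-KO liver (6), 5 for diet by tissue (11) and 1 for genotype by tissue (2). On the TPM scale, 3 passed with diet in WT visWAT, 13 between tissues (26) and 2 for diet by tissue. With DESeq2, 1 passed between genotypes in visWAT and 3 in liver on HFD, and 11 with diet in MlklAdi-KO liver. DESeq2 gave no adjusted p for *mt-Ts2* in genotype by tissue. A pseudocount of 0.1 left 0 between genotypes in liver on HFD and 1 for genotype by tissue, as did edgeR for the latter. Asking for a log2 difference of at least 1 left 2 with diet in MlklAdi-KO visWAT, 1 in WT liver and 0 in MlklAdi-KO liver. With the replicate block by mouse, 0 passed for genotype by tissue, while the 9 for diet by tissue and 26 between tissues did not move by over 1.5 times. Without mice 182 and 183, 17 passed for diet by tissue. Apart from the construction of each alternative, the cause was not tested.

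Leaving out single mice gave 0 to 1 between genotypes in visWAT and 0 to 2 in liver on HFD, 0 to 0 in both tissues on NCD, 12 to 19 and 11 to 14 with diet in WT and MlklAdi-KO visWAT, 2 to 8 and 4 to 10 in WT and MlklAdi-KO liver, 26 to 27 between tissues, 9 to 17 for diet by tissue, 1 to 5 for genotype by tissue, and 0 to 0 for genotype by diet in both tissues. Counts moved by over 1.5 times without mouse 154 between genotypes in visWAT on HFD (1), without mice 154, 161, 162 or 165 (2 each) or 182 (8) with diet in WT liver, without mouse 197 in MlklAdi-KO liver (10), without mouse 183 for diet by tissue (17), and without mouse 152 or 153 (5 each) or any of mice 151, 155, 156, 157, 161, 162 and 164 (1 each) for genotype by tissue. Between genotypes in liver on HFD, 2 passed without mouse 157 and 0 without any of mice 151, 152, 153, 154, 161, 162 and 164.

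Directions between tissues turned on the TPM scale for *mt-Tn* (-0.29), *mt-Tc* (-0.11), *mt-Co2* (-0.011), *mt-Nd3* (-0.69), *mt-Nd6* (-0.15) and *mt-Tp* (-0.01065), and relative to nuclear reads for *mt-Tn* (-0.0692) and *mt-Nd3* (-0.48). Of 5997 repeats of 286 results for named genes, 5770 kept direction and side of the threshold, 151 no longer passed, 68 passed newly and 8 turned. Depth limits the transfer RNA genes, 16 of which had a median under 100 reads in both tissues.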

Other observations

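In liver, the shares of nuclear genes for mitochondria that passed the test for diet were not above that of all genes in WT mice and were above it in MlklAdi-KO mice for 1 of 3 lists. Of 56 genes for mitochondrial transcription and RNA handling, 9 rose and 1 fell on HFD in WT liver, and 10 rose and 4 fell in MlklAdi-KO liver, shares of 17.9% and 25.0% beside 25.3% and 22.2% of all genes called. *Hsd17b10*, the ribonuclease P subunit that fell in WT visWAT, rose in liver, with log2 differences of 0.85 in WT and 0.78 in MlklAdi-KO mice. *Ppargc1a*, a coactivator of genes for mitochondrial biogenesis, fell by 1.09 in WT (4.62 ± 0.383 FPKM on NCD, SD, n = 4, and 1.66 ± 0.433 FPKM on HFD, SD, n = 5) and fell by 1.003 in MlklAdi-KO liver. *Fastkd1*, which is known to act on the level of the *mt-Nd3* messenger, rose by 0.46 in WT liver, where *mt-Nd3* had a log2 difference of 0.23 (adjusted p = 0.502). *Esrra*, a nuclear receptor for genes of oxidative metabolism, rose by 0.60 in MlklAdi-KO liver. Of 76 genes for nuclear respiratory subunits, 11 fell in WT and 14 in MlklAdi-KO liver and none rose, shares of 14.5% and 18.4%.

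Of 16 genes for mitochondrial content, 6 fell and none rose on HFD in WT visWAT, 5 rose and 3 fell in MlklAdi-KO visWAT, 3 fell in WT liver and 1 fell in MlklAdi-KO liver, beside 37.8, 43.7, 25.3 and 22.2% of all genes called. For the product of genotype and diet in visWAT, 0 of 16 content genes passed. The product of diet and tissue in WT mice passed with a positive term for 25 and a negative term for 3 RNA handling genes, for 26 and 1 respiratory subunit genes and for 2 and 0 content genes, against 40% of all genes called. It was 1.78 for *Hsd17b10* (SE 0.19), 1.33 for *Trub2* (SE 0.34) and 0.81 for *Fastkd1* (SE 0.16). Between tissues, 39 RNA handling genes were higher and 8 lower in liver, as were 67 and 6 respiratory subunit genes and 10 and 4 content genes. The shares called were 83.9, 96.1 and 87.5%, beside 87% of all genes. *Lrpprc*, which stabilizes mitochondrial messenger RNAs, was higher in liver by 2.11 (SE 0.06) and *Twnk*, the mitochondrial helicase, by 1.67 (SE 0.06), where the TPM scale moves the median of all genes to -0.73. Between genotypes, limma called 0 genes of the 3 lists in either tissue and on either diet. At an unadjusted p under 0.05 there were 64 of 76 respiratory subunit genes, 10 RNA handling genes and 6 content genes in visWAT on HFD, where the median log2 difference of the respiratory subunit genes was 0.27 beside -0.00 for all genes and 21.5% of all genes had an unadjusted p under 0.05. In the other 3 genotype comparisons at most 5 genes of a list did, beside 3.75 to 12.6% of all genes.

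The chromosome 1 copies differed with diet in visWAT too. In WT mice *Gm10925* fell by 1.74 on the log2 scale on HFD, *Gm28437* by 1.40, *Gm28661* by 1.38 and *Gm28438* by 1.18, while *Gm29216* had a log2 difference of -1.24 (adjusted p = 0.0995). In MlklAdi-KO mice *Gm10925* fell by 0.87 and *Gm28437* by 0.73, and *Gm28661* (-0.44), *Gm28438* (-0.24) and *Gm29216* (-0.39) did not pass. On the 1222-base copy, *Gm28439* and *Gm10222*, named after their values were seen, fell in both genotypes. Their log2 differences were -1.50 and -1.44 in WT and -0.94 and -0.76 in MlklAdi-KO mice. Where a read lies in a stretch that is identical in both genomes, its origin cannot be told apart.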
